A study of Mus musculus with 16 samples.

Results

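Merged regions of open chromatin wider than 1000 bp were examined in 4 stages of mouse thymocyte development. Peaks of the 4 stage lists were merged wherever they shared 1 bp or more, which gave 185978 regions, and 5596 of these (3.01%) were wider than 1000 bp. The wide regions held 11.6% of the merged territory. Their median width was 1182 bp (quartiles 1078 and 1351 bp, widest 2853 bp). The members were chosen by the width of the merged peaks, so widths and the heights of the same peaks are given below as a description.

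The thymocytes came from 4 wild-type C57BL/6J mice aged 9 weeks (Mouse4144, Mouse300, Mouse4220 and Mouse302), sorted by flow cytometry into double negative (DN, CD4-CD8-CD3-), double positive (DP, CD4+CD8+), CD4 single positive (SP4, CD4+CD8-CD3+) and CD8 single positive (SP8, CD4-CD8+CD3+) cells. Each of the 16 libraries was made by ATAC-seq, in which a transposase cuts and tags DNA wherever chromatin is accessible. The authors pooled the reads of the 4 mice of each stage before they called peaks, so each stage has 1 list and no value below has a replicate error or a test. More cells with an open site and a more open site per cell cannot be told apart in such data. All 12 T cell marker genes examined (*Cd3e*, *Cd3d*, *Cd3g*, *Cd4*, *Cd8a*, *Cd8b1*, *Ptcra*, *Rag1*, *Rag2*, *Lck*, *Il2ra* and *Bcl11b*) had a peak at a transcription start site (TSS) or promoter at every stage. Over all protein-coding autosomal genes, 67.8% had one in at least 1 list. Of 10 hepatocyte genes, 0 had one. Of 10 neuron genes, 6 had one in DN cells, 3 in DP cells and 2 in either SP stage, and of 10 B cell genes 4 or 5 had one at each stage. The counts at each stage were 4 or 5 of 9 erythroid genes, 3 or 4 of 10 myeloid genes and 1 to 3 of 10 muscle genes. The part of such genes in the widths was not tested.

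Open chromatin marks stretches of DNA where nucleosomes are absent or loosely held, so that polymerase and transcription factors can reach it. At most housekeeping genes the promoter lies in a CpG island, a stretch of DNA rich in CG dinucleotides that stays unmethylated and free of nucleosomes in most cell types. Enhancers, by contrast, are usually short, poor in CG dinucleotides and open only in the cells that use them. In the thymus, DN cells commit to the T lineage, DP cells rearrange the T cell receptor alpha locus and undergo selection, and SP4 and SP8 cells are the selected helper and cytotoxic precursors.

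The range of sequences at the summits of wide regions is shown by 6 windows of up to 300 bp around the tallest summit, with CG dinucleotides in capitals. They are the widest region at a promoter (*Znrf3*, chr11:5443174-5443473), the widest at no promoter (nearest gene *Wdr26*, chr1:181256279-181256578) and regions with a large width ratio at DN (*Col14a1*, chr15:55308569-55308868), DP (*Tsku*, chr7:98361391-98361535), SP4 (*Pyroxd2*, chr19:42737844-42738088) and SP8 (*Zdhhc8*, chr16:18235154-18235329). Parts that lie in an untranslated region were left out. The windows at *Satb1* and *Tifa* held no long enough stretch outside one, so the third region of the DP order is shown, beside its summit. For SP8 the second region of the order is shown. Sequences are from the plus strand of the RefSeq GRCm38 assembly.
Znrf3: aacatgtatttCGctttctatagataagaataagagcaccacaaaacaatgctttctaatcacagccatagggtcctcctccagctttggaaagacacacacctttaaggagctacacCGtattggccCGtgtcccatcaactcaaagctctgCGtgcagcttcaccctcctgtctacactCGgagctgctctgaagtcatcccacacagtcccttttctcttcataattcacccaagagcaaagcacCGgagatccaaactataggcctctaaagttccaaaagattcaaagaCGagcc
Wdr26: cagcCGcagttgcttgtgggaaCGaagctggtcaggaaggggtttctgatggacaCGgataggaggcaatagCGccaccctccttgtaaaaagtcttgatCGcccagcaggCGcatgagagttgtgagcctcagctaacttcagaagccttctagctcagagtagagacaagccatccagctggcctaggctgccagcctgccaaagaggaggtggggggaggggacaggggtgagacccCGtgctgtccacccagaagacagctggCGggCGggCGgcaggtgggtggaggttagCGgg
Col14a1: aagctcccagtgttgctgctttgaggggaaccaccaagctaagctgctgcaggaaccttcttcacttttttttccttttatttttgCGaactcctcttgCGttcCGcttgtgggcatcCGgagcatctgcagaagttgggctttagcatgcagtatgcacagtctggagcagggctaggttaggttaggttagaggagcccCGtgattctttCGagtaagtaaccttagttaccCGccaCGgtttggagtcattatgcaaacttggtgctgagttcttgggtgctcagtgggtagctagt
Tsku: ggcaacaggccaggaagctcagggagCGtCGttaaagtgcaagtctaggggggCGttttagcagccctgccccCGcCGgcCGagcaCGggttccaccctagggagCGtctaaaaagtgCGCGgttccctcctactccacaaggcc
Pyroxd2: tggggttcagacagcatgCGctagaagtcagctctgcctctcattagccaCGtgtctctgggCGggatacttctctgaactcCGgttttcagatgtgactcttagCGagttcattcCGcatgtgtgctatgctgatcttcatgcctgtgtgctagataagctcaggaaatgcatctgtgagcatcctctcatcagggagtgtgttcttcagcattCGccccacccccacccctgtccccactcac
Zdhhc8: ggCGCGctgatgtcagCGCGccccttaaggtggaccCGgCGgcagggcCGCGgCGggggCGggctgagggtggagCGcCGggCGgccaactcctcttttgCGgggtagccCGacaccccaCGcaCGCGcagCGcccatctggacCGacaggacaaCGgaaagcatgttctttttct
The *Zdhhc8* window holds 21 CG dinucleotides in 176 bases, and the *Znrf3* window 7 in 300. At *Znrf3* the tallest summit lay inside the gene and away from the promoter, in DNA with a GC content of 46.3%, although the region as a whole spans the TSS. The *Zdhhc8* and *Tsku* windows overlap a promoter. The *Col14a1*, *Znrf3* and *Pyroxd2* windows are inside the gene but outside its exons, and the *Wdr26* window is intergenic.

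No step in the data marks the 1000 bp limit. The first regions inside, each 1001 bp wide, lay at the promoters of *Wdfy1* and *B3gntl1* and at an exon of *Tnni1*, and 22 regions had this width. The first outside, each 1000 bp wide, lay at the promoters of *Mrps9*, *Nek7* and *Plxnc1*, and 20 regions had this width. Toward the upper end the wide regions thinned out quickly, with 730 over 1500 bp and 56 over 2000 bp.

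Wide regions overwhelmingly overlapped promoters. A promoter, taken as the 200 bp upstream of a TSS, was overlapped by 4566 of the 5596 regions (81.6%, 95% Wilson interval 80.6 to 82.6%), against 12.4% of all merged regions and 19.8% of the other 57855 regions called at all 4 stages. The share was higher than in those other regions on 19 of 19 chromosomes. It climbed with every class of width, from 4.87% of regions up to 250 bp wide to 52.7% from 750 to 1000 bp, 76.5% from 1000 to 1250 bp and 98.2% over 2000 bp. A longer region overlaps any feature more easily, and the tallest summit alone lay in a promoter in 51.3% of wide regions (Wilson interval 50.03 to 52.6%) and in 12.2% of the other regions called at all 4 stages. By width, this summit share was 33.5% from 750 to 1000 bp and 50.5% from 1000 to 1250 bp. It did not climb further in step with overlap, at 53.7% from 1250 to 1500 bp, 53.0% from 1500 to 2000 bp and 28.6% over 2000 bp. Of the remaining wide regions, 284 touched an exon, 379 lay in introns and 367 were intergenic.

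**Figure D1:**
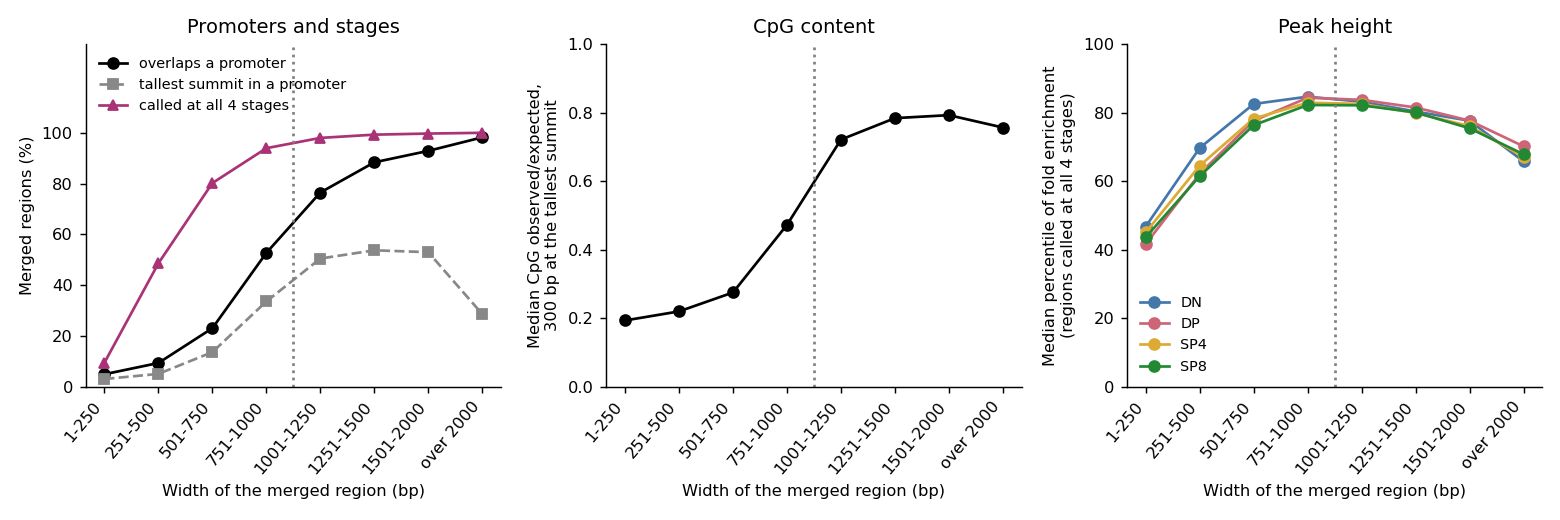
Merged regions by width in bp (horizontal axes), with the 1000 bp limit as a dotted line. Left, percent of regions that overlap a promoter, whose tallest summit lies in one, or that were called at all 4 stages; middle, median CpG observed over expected ratio; right, median percentile of fold enrichment at each stage among regions called at all 4 stages. Promoter overlap climbs from 4.87% to 98.2%, while the share with the tallest summit in a promoter is 28.6% over 2000 bp. Height is greatest from 750 to 1250 bp and lower beyond.

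Around the TSS the wide regions extended further into the gene than away from it. In 2841 wide regions at protein-coding promoters of 1 strand, the median reach was 495 bp upstream and 722 bp downstream, and 69.7% (Wilson interval 68.0 to 71.4%) reached further downstream. Among the other promoter regions called at all 4 stages the medians were 288 and 348 bp, and 58.0% reached further downstream. The tallest summit had a median position 10 bp upstream of the TSS in both sets. Its quartiles were -106 and 54 bp in wide and -86 and 36 bp in other promoter regions. The annotated TSS nearest to that summit was the reference, so a median close to it was partly built in. Protein-coding genes on opposite strands both had a TSS or promoter in 616 wide regions (13.5% of those at a promoter) against 5.35% of the other promoter regions. Whether such genes point away from each other was not checked, and a longer region takes in another TSS more easily.

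The 10 widest regions all lay at promoters and were mostly patchworks of shorter peaks. The widest, at *Znrf3* (chr11:5442767-5445619, 2853 bp), which encodes a ubiquitin ligase that removes Wnt receptors, was built from 22 peaks. Its widest peak measured 832 bp in DN, 796 in DP, 734 in SP4 and 1566 in SP8. *Sytl1* (chr4:133260973-133263631, 2659 bp), a partner of Rab27 in vesicle traffic, followed with 15 peaks, and then *Nr3c1*, the glucocorticoid receptor, on chromosome 18 (2527 bp, 12 peaks).

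A different form was seen at *Ppargc1b*, which encodes a transcriptional coactivator of nuclear receptors. There each stage had 1 unbroken peak, of 2149 bp in DN, 2078 in DP, 2393 in SP4 and 2199 in SP8, and 85.8% of the region lay under peaks of all 4 stages. The other 6 were *Fzd5* (2420 bp), a Wnt receptor, *Camk2d* (2355 bp), a calcium-dependent kinase, *Dlgap4* (2336 bp), a scaffold protein, *Setd7* (2333 bp), a lysine methyltransferase, *Hsp90ab1* (2332 bp), a chaperone, and *Rps6ka4* (2330 bp), a kinase of the stress and mitogen response.

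The widest regions were not the tallest. Height is given as fold enrichment over the local background at the summit of the strongest peak, and as its percentile within the list of that stage. The median over wide regions was 11.9 in DN, 12.4 in DP, 12.9 in SP4 and 13.5 in SP8, at percentiles between 80.5 and 82.1. In regions called at all 4 stages, the median percentile at DP was 84.3 from 750 to 1000 bp, 83.7 from 1000 to 1250 bp, 77.6 from 1500 to 2000 bp and 70.1 over 2000 bp, and the other stages followed the same course. At *Znrf3* the percentile lay between 53.0 and 61.5 at the 4 stages. The highest fold enrichment in any wide region was 40.3, against 77.7 in the other regions called at all 4 stages, which are far more numerous.

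Base composition, which the choice of regions did not use, separated wide regions by position. The CpG observed over expected ratio compares the CG dinucleotides counted with the number the C and G content alone would give, here in 300 bp at the tallest summit. Its median was 0.74 in wide regions against 0.26 in the other regions called at all 4 stages. At promoters it was 0.80 in wide and 0.65 in other regions, with a median GC content of 64.7 and 59.3%. Away from promoters it was 0.28 in wide and 0.23 in other regions, with a GC content of 52.3 and 49.7%. A ratio of 0.6 or more was found in 78.6% of wide promoter regions and in 131 of 1030 wide regions at no promoter (12.7%, Wilson interval 10.8 to 14.9%). The shares in the other regions called at all 4 stages were 55.1% at promoters and 5.48% elsewhere.

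**Figure D2:**
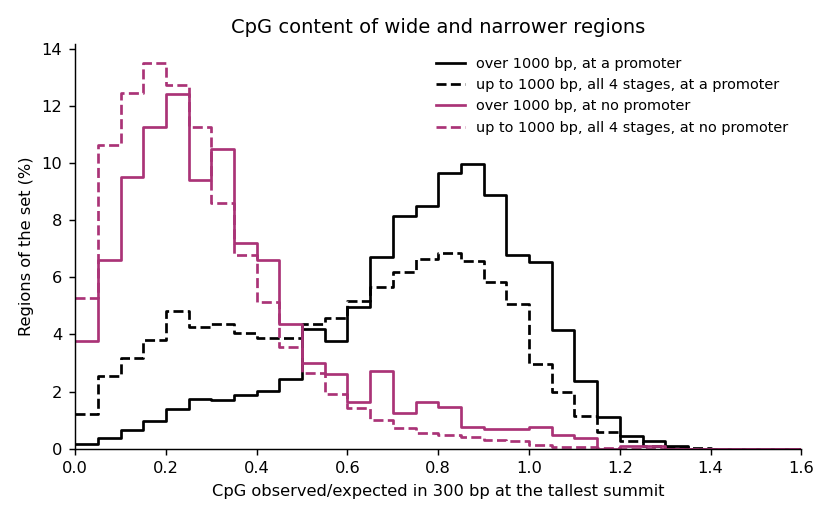
Distribution of the CpG observed over expected ratio in 300 bp at the tallest summit (horizontal axis), as percent of the regions in each set (vertical axis), for regions over 1000 bp (solid) and other regions called at all 4 stages (dashed), at a promoter (black) or not (purple). Wide promoter regions form 1 mode around their median of 0.80, while other promoter regions spread down to low ratios.

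The letters of several known motifs followed the same division. The SP and KLF box GGGCGGG, searched on both strands like every motif here, was found in 47.2% of windows at wide promoters, 32.7% at other promoters called at all 4 stages and 7.9% over all merged regions. The GC-rich ETS motif CCGGAAG was found in 16.4, 13.8 and 3.4% of the same sets. RUNX letters (TGTGGT), bound by factors that act throughout T cell development, stood in 12.2% of windows at wide promoters and 36.9% at wide regions away from promoters, with 31.5% over all regions. The E protein box CAGCTG stood in 17.1 and 30.4% with 23.0% over all regions, and CTTTGA, bound by TCF7 and LEF1, in 10.5 and 24.8% with 22.0% over all. AP-1 letters (TGANTCA) were found in 3.8% of wide promoters and 8.5% of wide regions at no promoter, with 9.9% over all regions. In the other regions called at all 4 stages, RUNX letters stood in 17.7% of windows at promoters and 33.4% elsewhere. CAGCTG stood in 20.2 and 23.4% of these sets, CTTTGA in 13.1 and 23.2%, and AP-1 letters in 6.0 and 10.2%. YY1 letters (AAGATGG) differed little, at 5.9% of wide promoters and 4.4% of wide regions at no promoter, with 5.7% over all. A match describes the letters and not binding.

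Nearly every wide region was open at every stage. All 4 lists had a peak in 5514 of the 5596 (98.5%, Wilson interval 98.2 to 98.8%), against 34.1% of all merged regions. The share rose with width and was already 80.2% from 500 to 750 bp and 93.9% from 750 to 1000 bp. DN had a peak in 5590, DP in 5570, SP4 in 5543 and SP8 in 5540, against 75.7, 53.9, 58.3 and 53% of all merged regions. Within the wide regions a median of 71.6% of the length lay under peaks of all 4 stages and 6.91% under peaks of a single stage. At promoters the shared part was 73.8%, and away from promoters 58.3%. In the other regions called at all 4 stages the shared part was 59.1%, with 68.9% at promoters and 57.0% elsewhere. The summits of the 4 stages lay within 100 bp of each other in 57.5% of the wide regions called at all 4 stages (Wilson interval 56.1 to 58.8%), 59.3% at promoters and 49.2% elsewhere. In the other regions called at all 4 stages, whose width leaves less room, the share was 81.0%.

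Most of the 82 wide regions missing from at least 1 list had a peak at DN or DP. DN had one in 76 of them, against 63.2% of all merged regions called at fewer than 4 stages, and DP in 56, against 30.1%. SP4 had one in 29 and SP8 in 26, near the shares of 36.7 and 28.6% in such regions. The widest peak was that of DN in 63. In 55 a single DN peak was itself over 1000 bp, so the choice by width fixed the DN call there. The DN count set beside 63.2% is therefore a description only. At DN and DP alone 22 were called, at DN alone 17, and 39 had no peak at either SP stage. Of the 82, 52 lay at a promoter, against 81.6% of all wide regions. A CpG ratio of 0.6 or more was found in 47 of the 82 (median ratio of the 82, 0.69), against 66.5% of all wide regions. Both criteria were met by 39.

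The widest of the DN-only regions lay at an exon of *Gdf6* (chr4:9859056-9860299), a member of the bone morphogenetic protein family, as 1 peak of 1244 bp with a fold enrichment of 7.79. The widest called at DN and DP lay at an exon of *Lor* (chr3:92080533-92082128), which encodes the epidermal protein loricrin, with peaks of 1086 bp at DN and 1459 bp at DP. At *Plekhg1* (chr10:3740172-3741441) the widest peak measured 1270 bp at DN, 333 bp at DP and 111 bp at SP4. *Lrig3* had 1343 bp at DN, 470 bp at DP and 141 bp at SP8, and *Sema6d*, a semaphorin, 1203 bp at DN, 240 bp at SP4 and 126 bp at SP8. *Kcng2* on chromosome 18, a potassium channel subunit, had 1213 bp at DN and 100 bp at SP4, where no merged region had a lower widest peak. The region called at DN and SP8 lay nearest to *1700029H14Rik*, with 1072 and 143 bp.

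Only 6 wide regions had no DN peak. One lay in an intron of *Sgms1* (chr19:32302223-32303494), which makes sphingomyelin, with peaks of 329 bp in DP, 756 in SP4 and 1070 in SP8. Another, 18933 bp from *Tlk1* (chr2:70844661-70845669), was called at the SP stages alone, with 731 bp at SP4 and 879 bp at SP8. The latter was the single wide region called at both SP stages and no other.

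The stage with the widest single peak shifted with width. In wide regions the widest peak was that of SP8 in 29.5% (Wilson interval 28.3 to 30.7%), DP in 27.4% (26.2 to 28.6%), SP4 in 23.0% (21.9 to 24.2%) and DN in 19.4% (18.4 to 20.5%), with ties in 38 regions. In the other regions called at all 4 stages the shares were 24.2% for SP8, 18.7% for DP, 24.4% for SP4 and 31.4% for DN. The DN share was lower and the DP and SP8 shares were higher in wide regions on 19 of 19 chromosomes, whereas the SP4 share was lower on 14. Split by position, DN was widest in 17.96% of wide and 25.5% of other promoter regions, and DP in 29.4 and 26.0%. Away from promoters DN was widest in 25.8% of wide and 32.8% of other regions, DP in 18.3 and 16.9%, and SP8 in 31.0 and 24.0%. The DP share thus differed more between promoters and other regions than between wide and other regions of either kind.

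**Figure D3:**
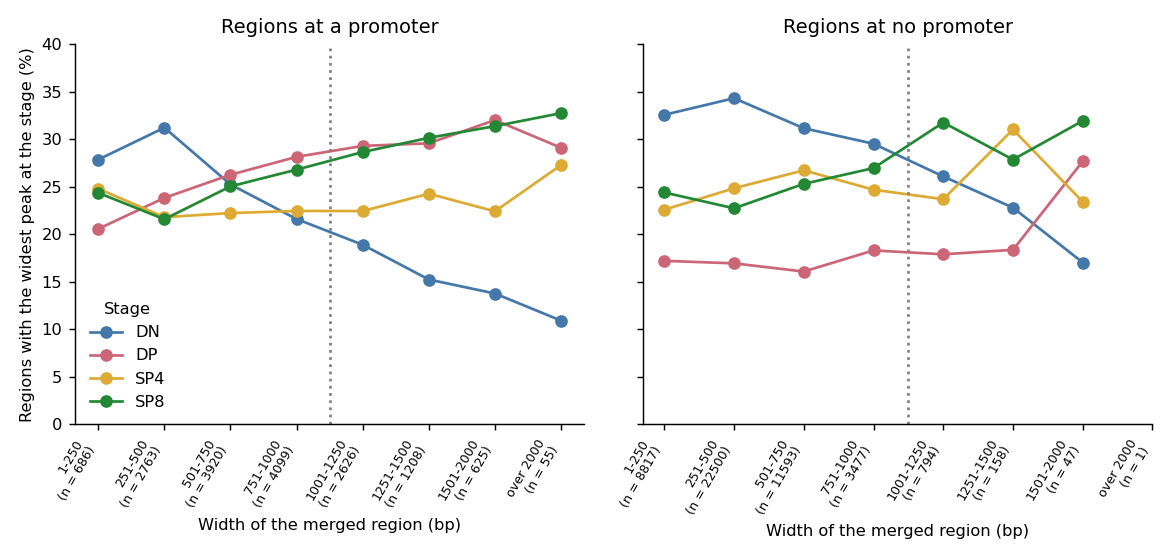
Percent of regions called at all 4 stages in which each stage has the widest peak (vertical axis), by width of the merged region in bp (horizontal axis, with the number of regions), at promoters (left) and elsewhere (right). Among promoter regions the DN share goes from 31.2% from 250 to 500 bp to 10.9% over 2000 bp, while the SP8 share goes from 21.6 to 32.7%. The class over 2000 bp at no promoter holds 1 region and is not drawn.

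Over all wide regions, the lists that more often broke an opening into several peaks were less often widest. DN had 2 or more peaks in 52.3% of wide regions, SP4 in 37.0%, DP in 33.6% and SP8 in 32.0%. Away from promoters this order did not hold. There DN had 2 or more peaks in 51.7% and DP in 49.2%, but DN was widest in 25.8% and DP in 18.3%. The wide territory under peaks was close to equal, at 83.9% for DN, 85.3% for DP, 83.6% for SP4 and 86.1% for SP8. A single peak over 1000 bp was present at DN in 1949 wide regions, at DP in 2773, at SP4 in 2461 and at SP8 in 2862, and at all 4 stages in 913. The widest stage exceeded the next by a median of 1.08 times and the narrowest by 1.54 times, and the widest was at least 1.5 times the narrowest in 2904 of 5514 regions (52.7%).

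A single stage that was far wider than the other 3 was less common, and at DP, SP4 and SP8 such a lead seldom extended to the length under all peaks. Of 5514 wide regions called at all 4 stages, DN was at least 1.5 times as wide as every other stage in 139 (2.52%), DP in 222 (4.03%), SP4 in 147 (2.67%) and SP8 in 188 (3.41%). The shares in the other regions called at all 4 stages were 4.66, 1.93, 3.11 and 2.45%. When the length under all peaks of a stage was compared in place of the widest peak, the ratio of 1.5 still held in 41 of the 139 DN regions (29.5%), but in 14 of the 222 DP regions (6.31%), 6 of the 147 SP4 regions (4.08%) and 11 of the 188 SP8 regions (5.85%). DP regions of this kind lay at promoters in 82.0% (Wilson interval 76.4 to 86.5%), like the 81.9% of all wide regions called at all 4 stages. The share was 68.0% for SP4 (60.1 to 75.02%), 60.1% for SP8 (53.0 to 66.8%) and 49.6% for DN (41.5 to 57.8%). Their median CpG ratio was 0.72 for DP, 0.56 for both SP stages and 0.32 for DN, against 0.74 in all wide regions called at all 4 stages.

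Among regions wider at DN, the leader was the promoter of *Col14a1* (chr15:55307542-55309034), a collagen gene. Its widest peak was 1425 bp in DN, 162 in DP, 107 in SP4 and 240 in SP8, a ratio of 5.94 to the next stage. No base of the region was covered at all 4 stages. *Galnt14* (chr17:73709664-73710785), a glycosyltransferase gene, had 1116 bp at DN and 198, 149 and 100 bp at DP, SP8 and SP4. The others were near *Ptma* (1298 bp at DN against at most 274 bp), at exons of *Dach1* (1560 against 332 bp), a transcription factor of organ development, and of *Il10* (1030 against 263 bp), the anti-inflammatory cytokine. In all 5 the DN list had 1 peak, and the length under all DN peaks also exceeded that of each other stage. At every stage the lowest widest peak of any merged region was 100 bp. The shortest peaks at *Col14a1* and *Galnt14* therefore lie at or near the floor of the lists.

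At DP the leader was the promoter of *Satb1* (chr17:51812347-51814030), a chromatin organiser with a central role in DP thymocytes. The DP list had 1 peak of 1681 bp there. DN had 4 peaks, the widest of 568 bp, SP4 had 2 with the widest of 494 bp, and SP8 had 3 with the widest of 504 bp, a ratio of 2.96. Under all peaks together lay 1681 bp at DP, 1242 bp at DN, 879 bp at SP8 and 678 bp at SP4, so the DP promoter was the most covered by either measure. Fold enrichment there was modest, at 4.90 at DP, 5.66 at DN, 2.83 at SP4 and 2.76 at SP8. *Tifa* (1122 bp at DP against 384 bp), an adaptor of NF-κB signalling, *Tsku* (1611 against 552 bp), *P3h4* (1162 against 400 bp) and the actin-bundling gene *Fscn1* (1138 against 411 bp) followed. At *Tsku* the peaks together covered 1611 bp at DP, 1431 bp at DN, 1202 bp at SP8 and 852 bp at SP4.

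Of the SP4 leaders, *Pyroxd2* (chr19:42737517-42738553) had 1 peak at each stage, of 1037 bp at SP4, 284 bp at SP8, 138 bp at DP and 136 bp at DN, and its fold enrichment was 12.4 at SP4 and at most 5.82 elsewhere. A region 81718 bp from *Itga4* had 1002 bp at SP4 against 275 bp. *Clmp* had 1042 against 376 bp with similar heights at SP4 and SP8 (fold enrichment of 29.7 and 30.9), and *Cited2*, a cofactor of p300, 1652 against 648 bp. A region near *Gm11077* had 1198 against 402 bp. At SP8 the order began with an intergenic region 350649 bp from *Sall3* (1106 bp against 250 bp) and the *Zdhhc8* promoter (chr16:18234322-18235886), a palmitoyltransferase gene, with 1551 bp against 359 bp. *Fhl3* (1077 against 349 bp), *Rxra* (1219 against 405 bp), a nuclear receptor partner, and *Kmt5a* (1709 against 580 bp), which methylates histone H4, followed. At *Kmt5a* the peaks together covered 1709 bp at SP8, 1580 bp at DP, 1320 bp at DN and 1141 bp at SP4.

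**Figure D4:**
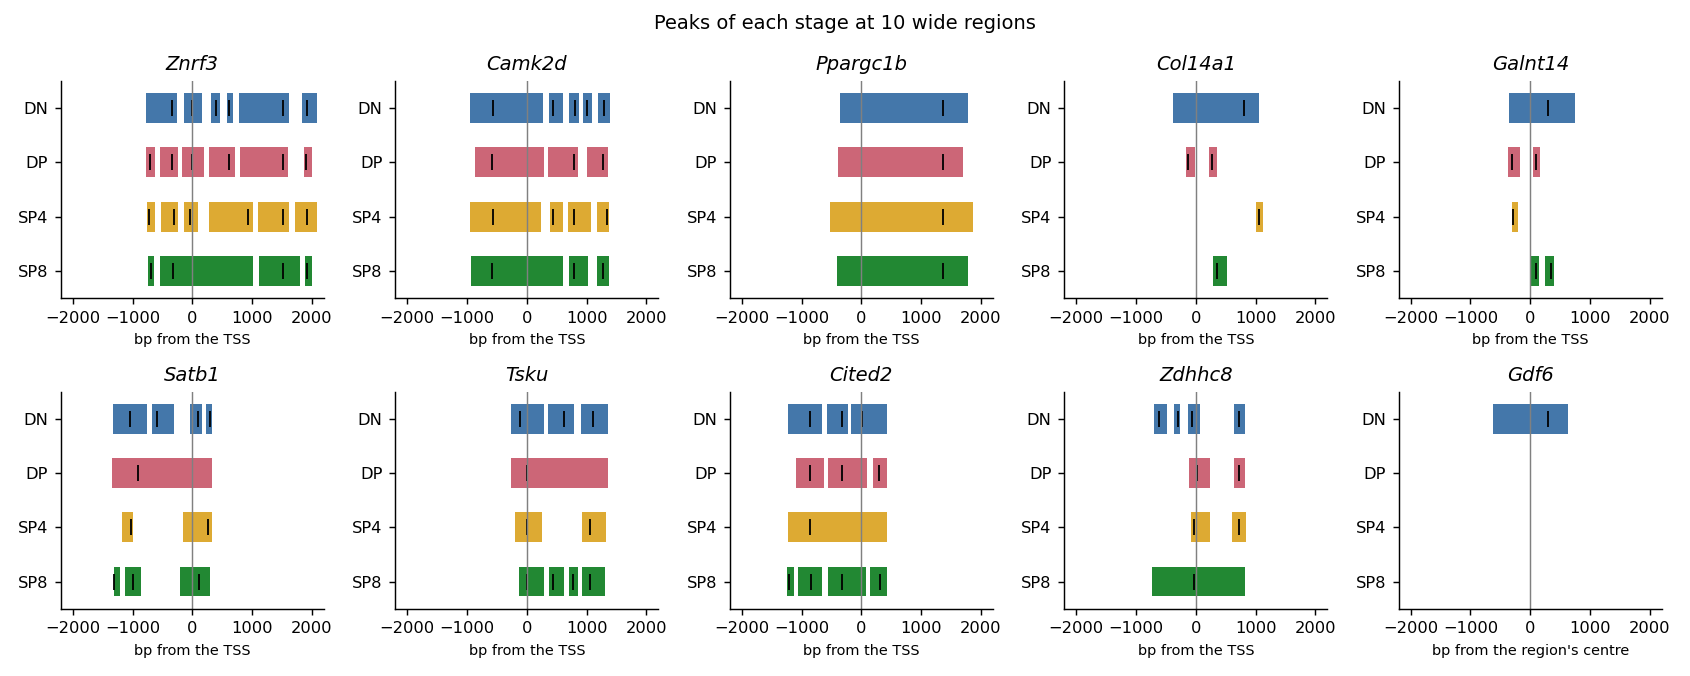
Peaks of each stage (bars, DN blue, DP red, SP4 yellow, SP8 green) and their summits (black ticks) at 10 wide regions, by distance in bp from the TSS, with the gene to the right, or from the region's centre at *Gdf6*. *Ppargc1b* has 1 peak of over 2000 bp at each stage, *Tsku* at DP and *Cited2* at SP4 have 1 long peak where other stages have several, and *Col14a1*, *Galnt14* and *Gdf6* have a long peak at DN and short peaks or none elsewhere.

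The 1030 wide regions at no promoter included stretches close to genes and far from any. The widest of those that also contained no TSS lay 43499 bp from *Wdr26* (chr1:181255500-181257645, 2146 bp), with widest peaks of 1604 bp at SP4, 1304 bp at DN, 1118 bp at SP8 and 864 bp at DP. The next, at an exon of *Crlf2* (chr5:109556778-109558769, 1992 bp), was 1 peak at each stage of 1952, 1959, 1976 and 1992 bp from DN to SP8, with 98.0% of its length shared. *Crlf2* encodes a receptor chain for thymic stromal lymphopoietin. Regions at exons of *Lexm* (1985 bp), *Prr7* (1940 bp) and *Spred2* (1754 bp), an inhibitor of Ras signalling, and near *Capn11* (1836 bp), *Irf2bpl* (1801 bp), *Cebpb* (1765 bp, 114122 bp away), *Snx9* (1731 bp) and *Ccdc54* (1726 bp) completed the 10 widest. The CpG ratio at the summit reached 0.82 at *Prr7* and 0.87 near *Ccdc54*, and was 0.14 at *Lexm*.

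The genes with wide promoter regions were counted on 20 lists. Of 20780 protein-coding autosomal genes, 4830 (23.2%) had a wide region at a TSS or promoter, which is 34.3% of the 67.8% of genes with any merged region there, and 51.2% had one within 50 kb. Splicing and RNA-binding genes had one in 19 of 30, chromatin regulators in 15 of 24 and genes of immediate signalling and NF-κB feedback in 14 of 24. Cell cycle and replication genes had one in 13 of 28, and T lineage transcription factors in 9 of 24, near the share of genes with any merged region there. At the low end were progenitor and DN stage genes (1 of 20) and developmental transcription factors of other lineages (1 of 24). B cell, neuron, hepatocyte and muscle genes had 0 of 10 each, erythroid genes 0 of 9 and myeloid genes 1 of 10 (*Cebpa*). A merged region of any width was present there in 6 B cell, 6 neuron, 0 hepatocyte, 4 muscle, 5 erythroid and 5 myeloid genes. Cytosolic ribosomal protein genes, expressed at high levels in every cell, had a wide region in 11 of 49 (22.4%). This was near the 23.2% of all protein-coding genes and below the 34.3% of those with any merged region there, which all 49 had. Of the 11, 8 were widest at SP8, against 29.2% of all wide promoter regions.

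**Figure D5:**
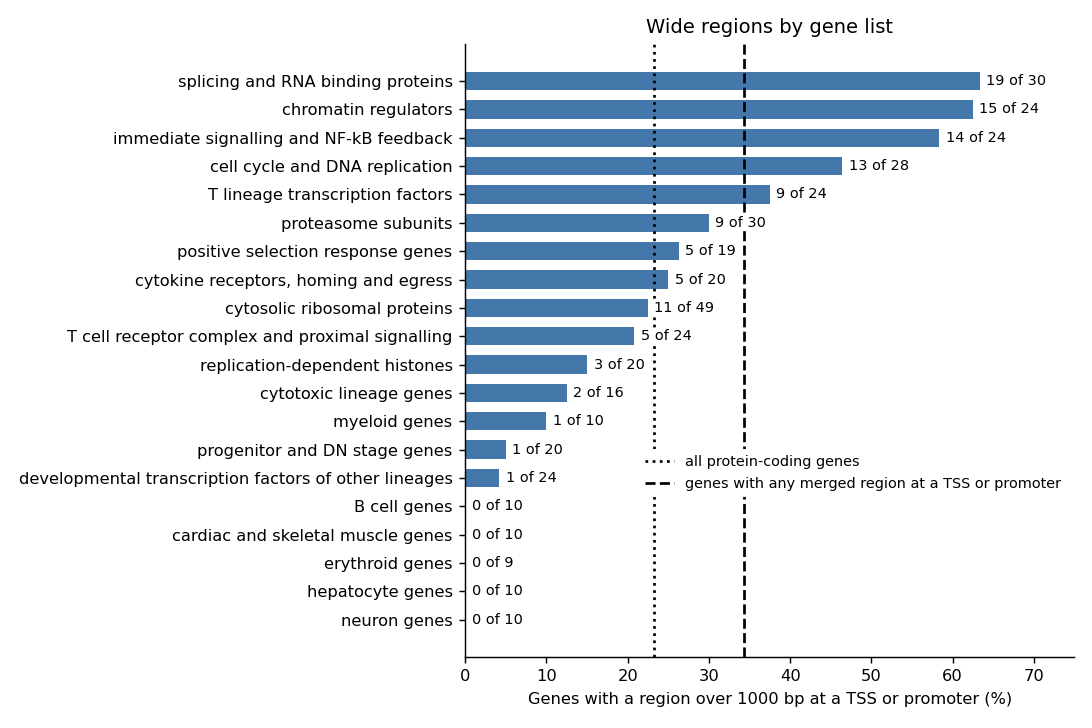
Percent of the genes of each list with a region over 1000 bp at a TSS or promoter (bars, with counts), beside all protein-coding genes (dotted, 23.2%) and those with any merged region there (dashed, 34.3%). The splicing, chromatin, NF-κB feedback and cell cycle lists lie well above both lines, T lineage factors near the dashed line, and lists of other lineages fall below both.

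Several long promoters of splicing and chromatin genes had similar widths at all stages, and others did not. *Hnrnpk* (chr13:58401328-58403312, 1985 bp), which binds pre-mRNA, had a widest peak of 1834 bp in DN, 1545 in DP, 1511 in SP4 and 1957 in SP8. *Hnrnpu* had 1610, 1509, 1630 and 1642 bp, and *Srsf2*, an SR splicing factor, 1192, 1774, 1592 and 1660 bp in the same order. Among chromatin regulators, *Ep300*, the p300 acetyltransferase, had 1472, 1595, 1572 and 1482 bp. The Polycomb methyltransferase gene *Ezh2* had 1540 bp in DN, 1507 in DP, 593 in SP4 and 1507 in SP8. At *Hdac7*, a deacetylase of DP thymocytes, the widest peak was 922 bp in DN, 1103 in DP, 279 in SP4 and 325 in SP8.

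T lineage factors differed from one another. *Runx1* (chr16:92697186-92698961) had 723 bp in DN, 1747 in DP, 600 in SP4 and 1135 in SP8, and *Myb*, needed for early thymocytes, 725, 1121, 540 and 886 bp. *Tcf12*, which encodes the E protein HEB, had 662, 1570, 754 and 1754 bp, and *Tox*, a factor of CD4 lineage development, 1170, 1144, 1179 and 1171 bp. In contrast, *Foxo1* was widest at SP4 (1067 bp against at most 659 bp), and *Gfi1* at DN with 1167 bp and 441 bp at SP4. The promoters of *Bcl11b* (904 bp), *Lef1* (913 bp), *Ets1* (990 bp), *Gata3* (418 bp) and *Tcf7* (481 bp) were open but stayed below the limit in merged width.

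Of the 24 genes of the T cell receptor complex and proximal signalling, 5 had a wide promoter region. *Cd247*, the zeta chain, had 942 bp in DN, 1590 in DP, 737 in SP4 and 709 in SP8. *Cd8b1*, a chain of the CD8 coreceptor, had 710, 1159, 791 and 912 bp, and *Vav1*, an exchange factor downstream of the receptor, 446, 1097, 992 and 1095 bp. *Zap70* was widest at SP8 (1077 bp against at most 749 bp). Among genes induced by selection, *Egr2*, a zinc finger factor, had 844 bp at DN and 1373, 1380 and 1389 bp at DP, SP4 and SP8. The feedback gene *Tnfaip3* had 915 bp at DN and 1324, 1422 and 1432 bp at the later stages, and *Rel*, an NF-κB subunit, 907 bp and then 1131, 1132 and 1152 bp. The DN peak was the narrowest in 4 of 5 wide promoter regions of the selection list and 10 of 14 of the feedback list, against 38.8% of all wide regions called at all 4 stages. These lists were not alone, with 14 of 19 on the splicing list and 8 of 11 on the ribosomal protein list. Low counts were found for T lineage factors (1 of 9) and cell cycle genes (2 of 13). *Bcl2*, an inhibitor of apoptosis on the selection list, was widest at DN (1294 bp against at most 1181 bp). *Irf4* differed, with 1091 bp at DN and at most 462 bp elsewhere.

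Wide regions away from promoters lay in or within 50 kb of 9.3% of protein-coding genes. On the list of T lineage factors they did so at 7 of 24 genes, and on the receptor signalling list at 6 of 24. Other lists had similar shares, with 7 of 28 cell cycle, 6 of 24 feedback, 11 of 49 ribosomal protein and 3 of 10 B cell genes. Longer genes have more room for such regions, which the counts do not take into account. *Lef1* had 3. An intronic one (chr3:131207696-131209206, 1511 bp) had widest peaks of 689 bp in DN, 604 in DP, 1188 in SP4 and 1501 in SP8. The second, at an exon (chr3:131190649-131191804), measured 263, 167, 613 and 1103 bp, and the one 44912 bp outside the gene 482, 363, 680 and 859 bp. All 3 were widest at SP8 and narrowest at DP. A region 11903 bp from *Cd4* (chr6:124900124-124901245) had 650 bp in DN, 1099 in DP, 419 in SP4 and 291 in SP8, and an intronic region of *Ikzf1* (chr11:11725296-11726613) 696, 1278, 685 and 685 bp, both widest at DP. Near *Tcf7* (chr11:52313815-52314881, 30801 bp away) the widths were 700, 926, 888 and 1067 bp.

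Most genes nearest to a wide region had only 1. Within the gene or 50 kb of it, 4532 genes were nearest to 1 wide region, 358 to 2, 52 to 3, 7 to 4 and 3 to 5. Those with 5 were *Dock9*, an exchange factor for Cdc42 (6381 bp in all), *Gfod1* (5808 bp) and *Rreb1*, a Ras-responsive transcription factor (5648 bp). All 5 regions of *Gfod1*, of which 1 was at a promoter, were widest at SP8. *Msi2*, an RNA-binding protein of stem cells, *Sgms1*, *Rab11fip4*, *Akap2*, *Gse1*, *Nav2* and *Gm20388*, a very long gene model that overlaps others, had 4 each, and of the 4 at *Nav2* 3 were widest at DN. The median distance from a wide region to the nearest other was 68186 bp. Another lay within 5 kb of 76 (1.36%), and 2075 (37.1%) had none within 100 kb. These distances were not compared with those of an even spread. Chromosomes held between 157 wide regions (chromosome 18) and 457 (chromosome 11), or 2.50 to 3.60% of their merged regions.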

How the data were processed

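ATAC-seq was measured in 4 mice at each of 4 stages. The authors aligned reads to mm10 (GRCm38), reduced each library to the median depth, combined the 4 mice of a stage and ran MACS2 at an FDR of 5%. The depth of the pooled reads was not used here. The score of each peak, as the authors deposited it, is the caller's own value and was not analysed. The authors also deposited the ratio of summit signal to local background, called fold enrichment here. The −log10 q-value is the authors' deposited output of MACS2, and it chose the strongest peak of a stage.

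Peaks of the 4 lists were merged where they shared at least 1 bp, with code that gave the same regions as bedtools 2.31.1 on simulated lists and recovered 5000 of 5000 simulated sites with their widths and widest stage. No peak reached past a chromosome end of the reference. The annotation joined GENCODE M21 with RefSeq, on chromosomes 1 to 19. The tallest summit was that of the stage with the highest percentile of fold enrichment, and 14 motifs were matched exactly in 300 bp around it. Regions at no promoter carry the name of the nearest protein-coding gene, which does not say that they act on it. Peak width depends on depth, on height and on how the caller joins or splits neighbouring summits. Shares have 95% Wilson intervals (statsmodels 0.14.6), which cover counting error only and treat regions as independent.

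The members and the gene lists were chosen with earlier results of these data known. Named regions follow a rule: the 10 widest, the 10 widest without promoter or TSS, the 5 with the largest width ratio at each stage, the widest for each smaller set of stages, the 10 genes with most wide regions, 3 on either side of the limit, and examples from the lists. List examples near genes, away from promoters, the promoter widths of list genes under the limit and the counts of regions narrowest at DN were chosen after their values were seen.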

Additional observations from a re-analysis of the deposited data

How the results depend on the processing

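Of 52 values recomputed under other settings, 31 stayed within the 95% interval of the value in the report, or within 1.5 times it for counts, and 21 moved. Requiring a q-value of at most 0.001 or using equal numbers of peaks per stage (104411) moved none. With a width over 1500 bp there were 730 regions, the promoter share was 93.3%, the share called at all 4 stages 99.7%, the widest stage was DN in 13.8%, DP in 31.5% and SP8 in 31.4%, the median CpG ratio was 0.79 and the summits lay within 100 bp in 51.1%. With peaks up to 100 bp apart merged, the promoter share was 76.9%, the share called at all 4 stages 97.6% and the DN share 21.4%. Counting only regions with a single peak over 1000 bp gave a promoter share of 85.3%. With the tallest summit inside the promoter the promoter share was 51.3%, and with protein-coding TSSs only 76.7%. By length under all peaks of a stage, DN was widest in 22.1% of wide regions and in 31.8% of the other regions called at all 4 stages. Requiring a widest peak at least 1.1 times every other, the shares were 8.97% for DN, 13.9% for DP, 9.81% for SP4 and 13.3% for SP8, against 17.4, 8.46, 12.1 and 11.0% in the other regions. The median CpG ratio over whole regions was 0.72, and summits lay within 50 bp in 48.0%. The lower DN share and the higher DP and SP8 shares of wide regions, compared with other regions called at all 4 stages, were also present in the settings for which both were computed.

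Each stage has 1 pooled list, so leaving out a mouse was not possible, and differences between stages are not set against the spread between mice. No paired analysis was possible because the lists carry no replicates. Absence of a peak is absence of a call at this threshold, and the intervals say nothing of variation between animals.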
